A study of Rattus norvegicus with 22 samples.

Results

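The LGI genes and the genes of the ADAM22 family were followed in the nucleus accumbens (NAc) of 22 male adult Wistar rats. The family was taken by exact gene symbol as Lgi1, Lgi2, Lgi3, Lgi4, Adam11, Adam22 and Adam23, and 6 of these 7 symbols were found among the 17310 gene symbols of the count files. Adam22 was not analysed here. The family was chosen by the measured counts of Lgi2 in experiment 1, which had been noted as lower in EtOH rats, so those values are given as a description without a test. The choice named no values of the other 5 genes or of experiment 2, although earlier results of these data were known when it was made.

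In experiment 1, 5 rats could drink 6 v/v % EtOH or water at any time over 8 weeks, while 5 rats received only water. In experiment 2, all 12 rats could drink 6% EtOH or water for 4 weeks before 3 weeks of gavage and for 2 weeks after it. The gavage delivered EtOH (2.5 g/kg, 30 v/v %, 2 times daily) to 6 rats and water to the other 6, whose bottle access is described as running through the whole period. For the EtOH gavage rats, bottle access during the gavage weeks is not stated in the sources used here. The controls of experiment 2 therefore also drank EtOH, and none of its rats received water alone. The core and the shell of the NAc were dissected from an outbred strain, and the 22 libraries stand for 22 rats.

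LGI proteins are secreted by neurons and glia and carry a leucine-rich repeat part followed by an EPTP repeat part, which binds receptors of the ADAM22 family. These receptors, ADAM11, ADAM22 and ADAM23, look like ADAM metalloproteases but have lost the protease activity, so they act as anchors rather than as enzymes. LGI1 links ADAM22 and ADAM23 across the synapse, and ADAM22 in turn holds on to PSD-95 and to Kv1 potassium channels. Mutations of LGI1 cause a lateral temporal lobe epilepsy in humans, autoantibodies against it cause limbic encephalitis, and a mutation of LGI2 causes a juvenile epilepsy in dogs. LGI4 is best known from Schwann cells, where it is needed for peripheral myelination through ADAM22. ADAM11 is known for placing Kv1 channels at the terminals of cerebellar basket cells.

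RefSeq promoter windows on the GRCr8 build were matched for 2 of the 6 genes, Lgi1 and Lgi2, and both are shown because Lgi2 is the gene that led to the family and Lgi1 is its best studied relative. The 250 bases before the annotated start are printed for Lgi1 at chr1:245455441-245455690 and for Lgi2 at chr14:62628496-62628745, each on the plus strand, with every CG dinucleotide in capitals.
Lgi1: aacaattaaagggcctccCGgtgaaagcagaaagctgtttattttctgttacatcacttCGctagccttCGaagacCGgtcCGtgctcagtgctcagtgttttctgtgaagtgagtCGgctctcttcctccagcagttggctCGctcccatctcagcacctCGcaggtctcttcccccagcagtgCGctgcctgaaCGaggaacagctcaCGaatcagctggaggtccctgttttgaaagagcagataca
Lgi2: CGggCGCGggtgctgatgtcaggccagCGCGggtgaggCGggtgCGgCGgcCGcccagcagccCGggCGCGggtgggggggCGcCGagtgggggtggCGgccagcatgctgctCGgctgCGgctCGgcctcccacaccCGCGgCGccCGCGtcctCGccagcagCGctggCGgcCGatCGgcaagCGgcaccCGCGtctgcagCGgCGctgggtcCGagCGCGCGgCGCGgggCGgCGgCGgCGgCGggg
The windows differ in base composition. The Lgi2 window holds 44 CG dinucleotides at a GC content of 83.2%, and only 0.52% of the 33469 RefSeq windows of this length hold as many. In the Lgi1 window there are 11 at a GC content of 52.8%, a count that 33.6% of windows reach, and the median window holds 5. The GC box GGGCGG, searched on both strands, was found at 2 places in the Lgi2 window and at 0 in the Lgi1 window, and 30.5% of all windows hold at least 1. The TATA box letters TATAAA, also searched on both strands, were in neither window and are in 12.9% of all windows.

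Reads on genes numbered 2962291 to 5247386 per rat in experiment 1 and 6713617 to 8765472 in experiment 2. The filter on low counts kept 8655 genes in each experiment, and all 6 listed genes of the family passed it in both. NAc identity was checked with 9 markers of striatal projection neurons, among them Drd1, Drd2, Penk and Pdyn, and all 9 were detected in every library. In experiment 1 the reads outside annotated genes made up 48.4% to 51.1% of reads on or outside genes, and in experiment 2 they made up 46.1% to 58%. The 4 libraries of experiment 2 with the highest share, water gavage replicates 1 and 5 and EtOH gavage replicates 1 and 2, stood apart from the other 8 on the first principal component within groups, which held 73.2% of the variance. With edgeR's quasi-likelihood test, 0 of 8655 genes had an FDR under 0.05 in experiment 1 (0%) and 0 of 8655 in experiment 2 (0%). At an unadjusted p under 0.05 there were 483 genes (5.58%) in experiment 1 and 115 (1.33%) in experiment 2. DESeq2, run on all 17310 listed genes without this filter, gave 0 genes at an FDR under 0.05 in each experiment. It gave 632 and 315 at an unadjusted p under 0.05, numbers from a larger set of genes than those of edgeR. Of the 5 listed family genes other than Lgi2, 0 had an unadjusted p under 0.05 in experiment 1, and of all 6, 0 had one in experiment 2.

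In experiment 1, Lgi2 was the only listed gene of the family for which the normalized counts of both groups were fully separate. Among water controls its values were 130.3, 94.5, 102.1, 128.6 and 82.9 in replicates 1 to 5, and among EtOH rats they were 59.8, 79, 67.4, 72.9 and 66.4. Every EtOH rat thus lay below every control, although the gap from 79 to 82.9 was narrow. The means were 107.7 ± 21 (SD, n = 5) in controls and 69.1 ± 7.2 (SD, n = 5) in EtOH rats, which is 34.8% lower in the fit (log2 fold change -0.62, standard error 0.15). Of all genes tested, 0.404% had groups that did not overlap with the EtOH rats lower, and 0.843% had groups that did not overlap in either direction. These values rest on few reads, 46 to 140 per rat. The 46 reads of EtOH replicate 1 have a 95% exact Poisson interval of 33.7 to 61.4, which covers counting error only.

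Tested markers of interneurons, the local inhibitory and cholinergic neurons of the NAc, were, like Lgi2, lower on average in EtOH rats of experiment 1. Of the 6 markers listed, 4 were tested and all 4 were lower in EtOH rats, with a median log2 fold change of -0.49 against 0 over all genes tested. Chat, the enzyme that makes acetylcholine, was at -0.63 on the log2 scale (standard error 0.25), Pvalb at -0.57 (0.24), Lhx6 at -0.41 (0.15) and Sst at -0.09 (0.08). None of them passed the test, the lowest FDR being 0.861 in edgeR's quasi-likelihood test, and the counts of all 4 overlapped between the groups. The summed level of the 6 markers was 214.5 to 271.3 CPM (reads on a scale common to all library sizes) in controls and 180.7 to 210.5 CPM in EtOH rats, without overlap. The list was chosen with earlier results of these data known, and no share of other gene sums without overlap was computed. Among controls, replicate 1 had both the highest sum and the highest Lgi2 count. The lowest sum, 214.5 CPM, was in replicate 4, where Lgi2 was at 128.6. Npy is listed at 0 in every library, and Vip was below the filter. The part of these cells in the Lgi2 values was not tested, and in whole tissue fewer cells of a type and less RNA per cell cannot be told apart.

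The other neuronal markers were less separated. Of the 9 markers of striatal projection neurons, 8 were lower in EtOH rats, from -0.50 for Drd1 (standard error 0.17, edgeR FDR 0.83) to 0 for Drd2, and their summed level overlapped widely, at 3028.6 to 5378.4 CPM in controls and 2710.4 to 5382.9 CPM in EtOH rats. All 5 tested markers of cortical excitatory neurons were higher, with log2 fold changes from 0.03 for Tbr1 to 0.43 for Neurod2 and a lowest FDR of 0.898, and their summed level was 317.4 to 1073.6 CPM in controls and 586.8 to 1014.8 CPM in EtOH rats. The extremes of this sum fell in water controls, where replicate 1 had the lowest and replicate 5 the highest. Those were also the controls with the highest and the lowest Lgi2 count. The other controls did not keep this order, since replicate 4, with a sum of 598.6 CPM and Lgi2 at 128.6, was above replicates 2 and 3 in both. The part of these cells in the Lgi2 values was not tested.

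Lgi1, the ligand that bridges ADAM22 and ADAM23, had values of 397.3, 349.4, 377.8, 412.1 and 326.3 in water controls and 343.3, 375.1, 331.5, 336.6 and 298.8 in EtOH rats. The groups overlapped, with 4 EtOH rats between 298.8 and 343.3. On the log2 scale the difference was -0.14 (standard error 0.08, 95% interval -0.31 to 0.03), and edgeR's quasi-likelihood test gave an FDR of 0.898.

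Lgi3, a ligand that takes part in placing Kv1 channels on axons, had means of 382.5 ± 43.9 (SD, n = 5) in controls and 378.1 ± 64.9 (SD, n = 5) in EtOH rats. Its log2 fold change was -0.02 (standard error 0.12, 95% interval -0.27 to 0.23, edgeR FDR 0.995). EtOH replicate 3 lay at 266.8, while the other 4 lay between 382.8 and 429.5.

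Lgi4, the glial ligand, was higher on average in EtOH rats. Its values were 459.9, 555.9, 585, 485.6 and 547.6 in controls and 631.9, 502.1, 578.7, 660.9 and 560.1 in EtOH rats. Replicates 1 and 4 of the EtOH group exceeded every control, and the other 3 lay within the range of the controls. The difference on the log2 scale was 0.15 (standard error 0.09, 95% interval -0.03 to 0.33, edgeR FDR 0.898).

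The receptors differed by less than the spread among rats in experiment 1. Adam11 had 457.3, 594, 585.7, 536.8 and 776.2 normalized counts in controls and 633.2, 471.1, 634.6, 621.9 and 577.8 in EtOH rats. Both the lowest and the highest value thus belonged to water controls. Its log2 fold change was -0.01 (standard error 0.12, 95% interval -0.27 to 0.24). Adam23, the presynaptic receptor, had means of 409.4 ± 67.4 (SD, n = 5) and 394.3 ± 83.6 (SD, n = 5) and a log2 fold change of -0.05 (standard error 0.14, 95% interval -0.34 to 0.24). The edgeR FDR was 0.995 for Adam11 and 0.99 for Adam23.

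**Figure D1:**
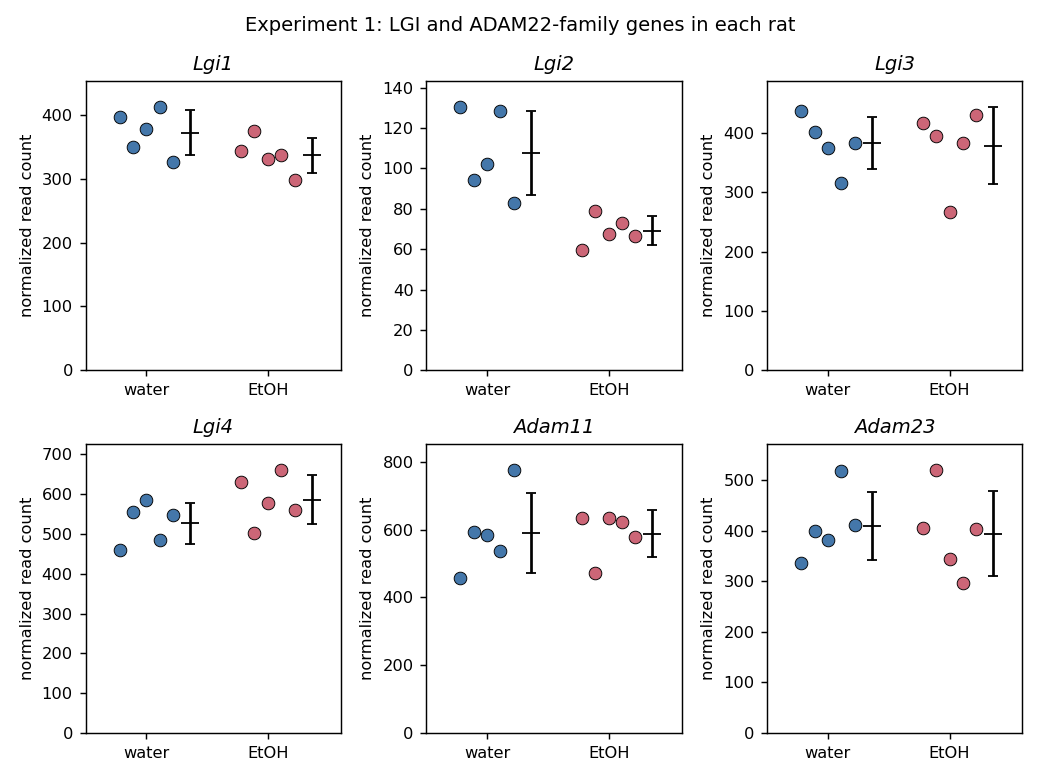
Normalized read counts (y axis, from 0) of the 6 genes in each rat of experiment 1, with points in order of replicate number and bars for mean and SD of 5 rats. The Lgi2 values of EtOH rats end at 79, below the lowest control at 82.9, while the groups of the other 5 genes overlap.

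Lgi2 and Adam11 ran in opposite order among the water controls of experiment 1. Replicates 1 and 4 had the highest Lgi2 counts, 130.3 and 128.6, and the lowest Adam11 counts, 457.3 and 536.8. Replicate 5 had the lowest Lgi2 count and the highest Adam11 count. Pearson's r of their deviations from group means was -0.87 over the 10 rats of experiment 1, the most negative of the member pairs. Over the 12 rats of experiment 2 this r was -0.27, so the opposite order describes experiment 1 only. Without replicate 5 of the water group, the log2 fold change of Lgi2 was -0.70 and that of Adam11 0.11, and without replicate 1 they were -0.54 and -0.09.

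In experiment 2, none of the 6 genes had groups without overlap, against 0.0116% of all genes tested, and none had an FDR under 0.05. Lgi2, which was lower in EtOH rats of experiment 1, had a lowest, median and highest value of 120.5, 234.4 and 417 normalized counts after water gavage and of 239.6, 290 and 363.5 after EtOH gavage. All 6 EtOH gavage rats thus fell inside the range of the water gavage rats, of which 3 lay between 120.5 and 184.8 and 2 at 415.3 and 417. Water gavage rats averaged 261.9 ± 131.6 (SD, n = 6) and EtOH gavage rats 298.7 ± 46.9 (SD, n = 6). In edgeR's quasi-likelihood test the log2 fold change was 0.19 (standard error 0.29, 95% interval -0.44 to 0.82, FDR 0.748). Among the 8 libraries that did not stand apart it was 0.09 (standard error 0.28), within the other 4 it was 0.38 (0.44), and without water gavage replicate 5 or 1 it was 0.04 or 0.37. The interneuron markers summed to 67 to 130.4 CPM after water gavage and to 65.4 to 127.6 CPM after EtOH gavage.

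Adam11, Lgi4 and Lgi1 followed the 4 libraries that stood apart in experiment 2, while Lgi2, at 120.5 to 417 in the 4 and 149.7 to 415.3 in the other 8, did not. Adam11 had 114.4 and 141.7 normalized counts in the water gavage libraries of that set and 35.2 and 115.2 in the EtOH gavage libraries, against 243 to 618.8 in the other 8. The highest library thus had 17.6 times the count of the lowest. The median of the 4 was 0.31 of the median of the other 8, a ratio lower than that of all but 3.6% of the genes tested. Its SD within groups was 1.13 on the log2 scale, larger than for 97.4% of genes, where the median gene had 0.34.

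Over all 12 rats, Adam11 had a lowest, median and highest value of 114.4, 375.4 and 618.8 after water gavage and of 35.2, 252.4 and 401.7 after EtOH gavage. The groups overlapped, and the log2 fold change was -0.69 (standard error 0.51, 95% interval -1.80 to 0.41, edgeR FDR 0.675). It was -0.46 without EtOH gavage replicate 1 and -0.95 without EtOH gavage replicate 4. Within the 8 other libraries the values were 618.8, 523.9, 399 and 351.9 after water gavage and 261.8, 401.7, 243 and 272.8 after EtOH gavage. There the difference was -0.65 on the log2 scale (standard error 0.20, edgeR FDR 0.451), and within the 4 libraries it was -0.78 (standard error 0.53, edgeR FDR 0.558). With the share of reads outside genes as a covariate it was 0.15 (standard error 0.18). Water gavage rats averaged a share of 50.1% ± 3.09 (SD, n = 6) and EtOH gavage rats 52.9% ± 3.42 (SD, n = 6), and its part in the Adam11 difference was not tested beyond these values. Cortical excitatory neuron markers, 6 genes, summed to 22.9 to 145.4 CPM in the 4 libraries and to 166.4 to 879.1 CPM in the other 8, and their part in the values of Adam11, Lgi4 and Lgi1 was not tested.

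Lgi4 was at 333 and 545.5 after water gavage and at 191.4 and 299.4 after EtOH gavage in the libraries that stood apart, against 499.9 to 862.9 in the other 8. Of the 4, only water gavage replicate 5 thus lay within the range of the 8. The median of the 4 was 0.56 of that of the 8, and 17.2% of the genes tested had a lower ratio. Water gavage rats averaged 590.7 ± 173.5 (SD, n = 6) and EtOH gavage rats 469.5 ± 195.6 (SD, n = 6), and the log2 fold change was -0.33 (standard error 0.29, 95% interval -0.96 to 0.30, edgeR FDR 0.675). It was -0.17 (standard error 0.16) within the 8 libraries, -0.85 (0.34) within the 4 and 0.04 (0.15) with the share of reads outside genes as a covariate. Without EtOH gavage replicate 1 it was -0.16, and without EtOH gavage replicate 4 it was -0.51. Markers of myelinating glia were read beside it. Sox10, a factor shared by Schwann cells and oligodendrocytes, was at 3.6 to 23.1 CPM in the 4 libraries and at 19.7 to 50.9 CPM in the other 8, with a log2 fold change of -0.77 (standard error 0.46, edgeR FDR 0.675) between the gavage groups. The myelin genes Mbp (medians 1525 and 3365 CPM), Mag (67.8 and 153 CPM) and Cnp (248 and 426 CPM) had lower medians in the 4 libraries than in the 8, and Mog (196 and 141 CPM) and Mobp (617 and 530 CPM) had higher ones. Between the gavage groups these 5 genes ranged from -0.63 for Mbp (standard error 0.30) to 0.01 for Mog (0.18), and in experiment 1 from -0.11 for Mbp (0.16) to 0.08 for Mog (0.15). The part of these cells in the Lgi4 values was not tested.

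Lgi1 ran the other way. Its 4 values in the libraries apart were 1592.3 and 1365.8 after water gavage and 2190 and 1957.7 after EtOH gavage, all above the 982.4 to 1279.2 of the other 8. The ratio of the medians was 1.51, and 87.1% of the genes tested had a lower ratio, so that such a shift was not particular to Lgi1. The means were 1247.8 ± 219.3 (SD, n = 6) and 1482.4 ± 465.4 (SD, n = 6), and the log2 fold change was 0.25 (standard error 0.19, 95% interval -0.16 to 0.66, edgeR FDR 0.675). The difference was 0.09 (standard error 0.11) within the 8 libraries, where 1146 to 1238.6 after EtOH gavage lay inside 982.4 to 1279.2 after water gavage, and it was 0.48 (0.21) within the 4. Without EtOH gavage replicate 1 it was 0.11, and with the share of reads outside genes as a covariate it was -0.06 (standard error 0.09).

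Lgi3 and Adam23 did not follow the 4 libraries, whose medians were 1.16 and 0.95 of those of the other 8. Lgi3 had a lowest, median and highest value of 871, 933.9 and 1384.8 after water gavage and of 689, 833.8 and 1413.6 after EtOH gavage, and in each group the next highest rat was at 1044.2. Its log2 fold change was -0.12 (standard error 0.18, 95% interval -0.51 to 0.27, edgeR FDR 0.75). It was 0.06 (standard error 0.20) within the 8 libraries, -0.40 (0.25) within the 4 and -0.20 (0.17) with the covariate. Adam23 was the least variable gene of the family in experiment 2, with an SD within groups of 0.22 on the log2 scale. It had 857.8, 1229 and 1451.8 normalized counts as lowest, median and highest value after water gavage and 1141.1, 1183.5 and 1494.9 after EtOH gavage. The log2 fold change was 0.04 (standard error 0.13, 95% interval -0.24 to 0.32, edgeR FDR 0.876), the narrowest interval among the 6 genes. It was 0.12 (standard error 0.17) within the 8 libraries and -0.09 (0.21) within the 4.

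**Figure D2:**
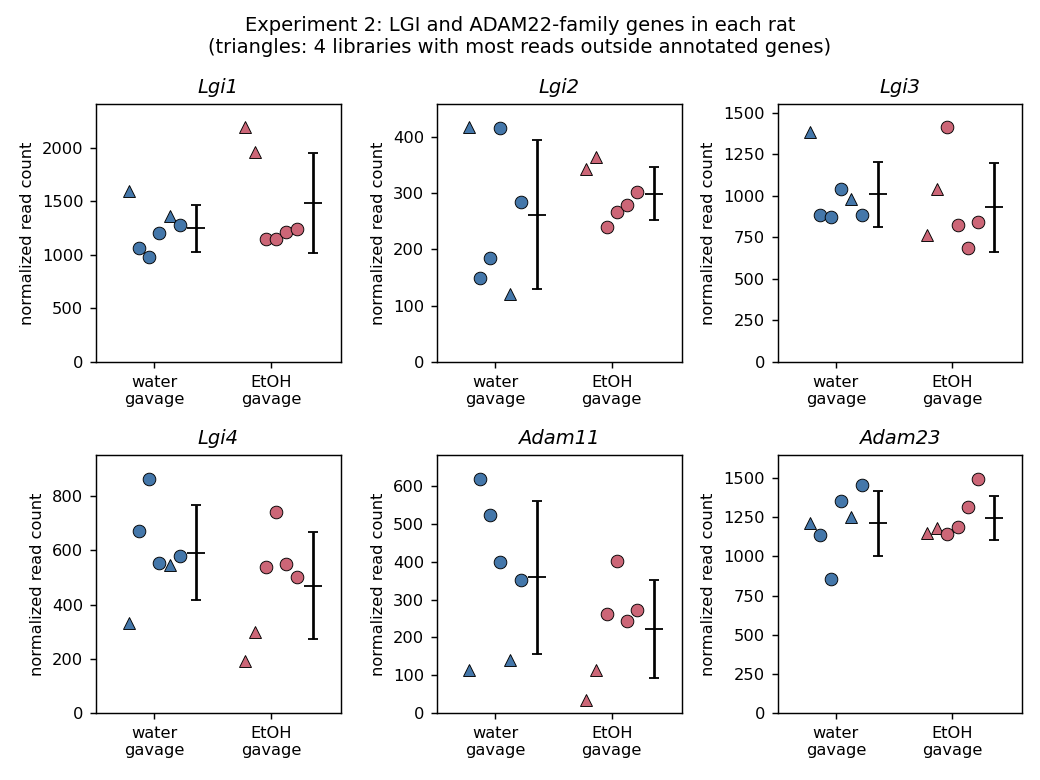
Normalized read counts (y axis, from 0) of the 6 genes in each rat of experiment 2, with bars for mean and SD of 6 rats and triangles for the 4 libraries with the highest share of reads outside annotated genes. The triangles are the lowest Adam11 values (35.2 to 141.7) and the highest Lgi1 values (1365.8 to 2190).

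**Figure D3:**
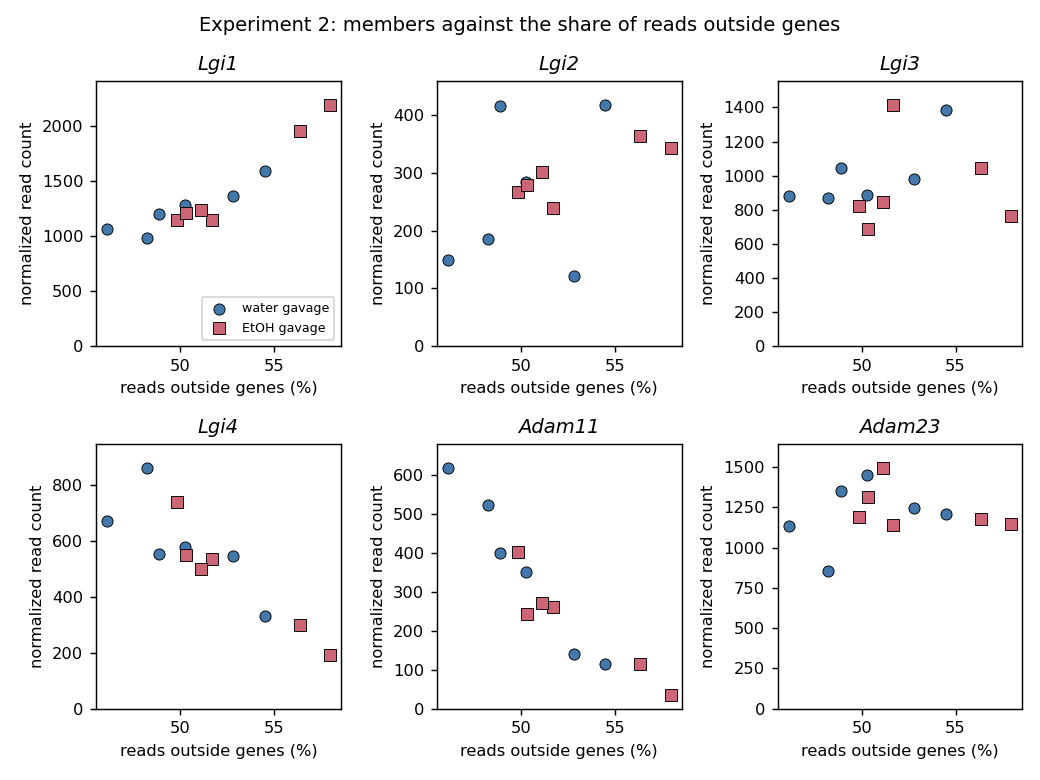
Normalized read counts of the 6 genes (y axis, from 0) against the percentage of reads outside annotated genes (x axis) in the 12 rats of experiment 2, with circles for water gavage and squares for EtOH gavage. Adam11 went from 618.8 at 46.1% to 35.2 at 58%, and Adam23 stayed between 857.8 and 1494.9.

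**Figure D4:**
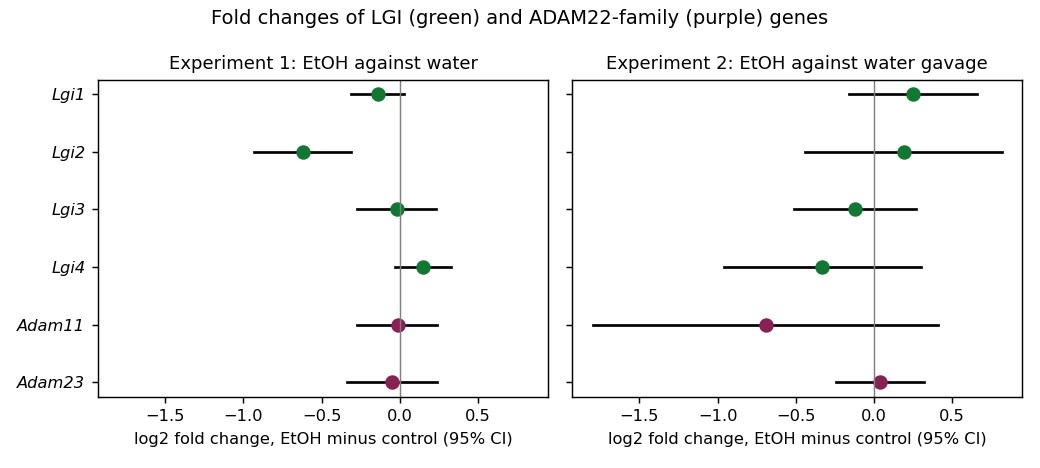
Log2 fold changes (x axis, EtOH minus control) of the 6 genes with 95% intervals from edgeR's quasi-likelihood fit, for experiment 1 on the left and experiment 2 on the right. In experiment 2 all 6 intervals include 0, and that of Adam11 is the widest, from -1.80 to 0.41; Lgi2 in experiment 1 is shown as a description.

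Of the 4 ligand genes, 2 were lower and 2 higher in experiment 2, with a median log2 fold change of 0.04, where 49.9% of all genes tested were lower and the median was 0. In experiment 1, Lgi1 and Lgi3 were lower and Lgi4 higher, apart from Lgi2, which chose the family, and 50.5% of all genes tested were lower. The mean levels were 93.5 CPM for Lgi1, 23.3 for Lgi2, 100.3 for Lgi3, 146.8 for Lgi4, 155.3 for Adam11 and 105.9 for Adam23 in experiment 1. In experiment 2 they were 179.9 CPM for Lgi1, 36.9 for Lgi2, 127.7 for Lgi3, 69.9 for Lgi4, 38.2 for Adam11 and 161.7 for Adam23. Library type, read length and rats all differed between the experiments, so their parts in these levels cannot be told apart. Transcript lengths were not used here, and levels are therefore not compared between genes. Experiment 1 used libraries without strand, in which reads of overlapping genes on opposite strands cannot be told apart. By gene start and end in the RefSeq table of GRCr8, Lgi4 overlaps 1 protein-coding gene, Fxyd3. Lgi1 and Adam11 overlap 1 long non-coding RNA gene each, while Lgi2, Lgi3 and Adam23 overlap 0. Strand and exons of these overlaps were not compared, and the reads were aligned to another build, rn6. The part of the overlaps in the counts of Lgi1, Lgi4 and Adam11 was not tested.

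Proteins that bind the receptors or sit in the same complexes were taken as lists, and 0 of their tested genes passed an FDR of 0.05 in edgeR's quasi-likelihood test in either experiment. PSD-95 (Dlg4), a scaffold of the MAGUK group, holds ADAM22 at the postsynaptic density. It was listed with other MAGUK genes and with the Lin7 genes, which are not MAGUK genes themselves. In experiment 1, 6 of 7 tested genes of this list were lower and 1 was higher, with a median log2 fold change of -0.09, from Cask at -0.26 (standard error 0.11, FDR 0.866) to Dlg2 at 0.03. In experiment 2, 4 were higher and 3 lower, from Lin7b at -0.83 (standard error 0.54) to Cask at 0.27 (0.18). Dlg4 itself had -0.05 (standard error 0.06) in experiment 1 and -0.50 (0.32) in experiment 2. Over the 12 libraries of experiment 2, Lin7b ranged from 1 to 26.2 CPM and Dlg4 from 194.9 to 974.7 CPM. Partner genes were not read in the fits without the 4 libraries that stood apart or with the covariate. The part of those libraries in the differences of partner genes in experiment 2 was not tested.

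AMPA receptor subunits and their auxiliary TARPs, the channels that the LGI1 complex helps to keep at synapses, had 5 of 9 tested genes higher in experiment 1, from Cacng4 at -0.27 (standard error 0.16) to Gria1 at 0.12 (0.08). In experiment 2, 6 of 9 were lower, from Cacng8 at -0.71 (standard error 0.64) to Gria2 at 0.25 (0.19). The genes of the Kv1 channel complex ranged from Kcna1 at -0.18 to Cntn2 at 0.05 in experiment 1 and from Kcnab2 at -0.56 (standard error 0.39) to Kcna1 at 0.37 (0.25) in experiment 2, with 5 and 4 of 7 lower. The 14-3-3 proteins, which bind ADAM22 and keep it at the cell surface, ranged from Ywhaz at -0.09 to Ywhag at 0.08 in experiment 1 and from Ywhag at -0.14 to Ywhaq at 0.20 in experiment 2, with 5 of 6 higher each time.

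Enzymes that add palmitate to PSD-95 or remove it had 4 of 7 genes lower in experiment 1, from Zdhhc2 at -0.11 to Zdhhc3 at 0.04. In experiment 2, 4 of 7 were higher, from Abhd17a at -1.04 (standard error 0.79, FDR 0.675) to Zdhhc2 at 0.30 (0.14). Abhd17a ranged from 0.3 to 64.7 CPM over the 12 libraries of that experiment. The Nogo receptor, another reported partner of LGI1, is encoded by Rtn4r, which was below the filter in both experiments and was not tested. The tested genes of its complex were Rtn4rl1, Rtn4, Lingo1 and Tnfrsf19. In experiment 1, 3 of these 4 were higher, with Rtn4rl1 at -0.04 and Tnfrsf19 at 0.13. In experiment 2, 3 of 4 were lower, with Lingo1 at -0.69 (standard error 0.67) and Rtn4 at 0.11. The other transmembrane ADAM genes, which include the active proteases Adam10 and Adam17, had 3 of 5 higher in experiment 1, from Adam10 at -0.07 to Adam19 at 0.15, and 3 of 5 lower in experiment 2, from Adam15 at -0.28 to Adam10 at 0.15.

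**Figure D5:**
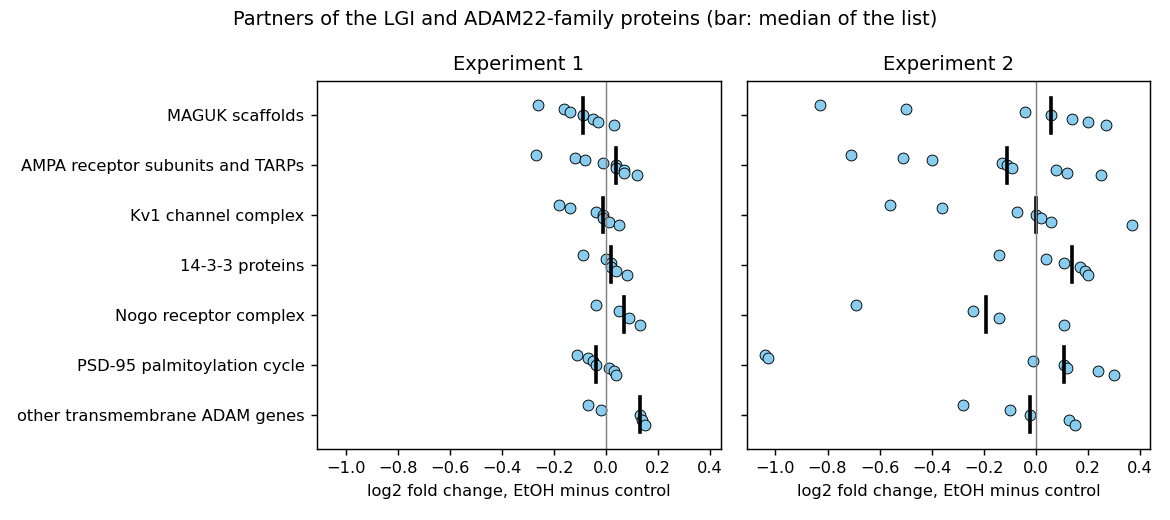
Log2 fold changes (x axis, EtOH minus control) of the tested partner genes, 1 point a gene, in 7 lists (rows), with a bar at the median of each list. The points of experiment 1 lie between -0.27 and 0.15, and those of experiment 2 spread from -1.04 to 0.37. The libraries of experiment 2 that stood apart are included.

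Genes whose deviations from the group means were most like those of each member were taken from the 8655 tested genes by Pearson's r, as a description of the rats and without a test. For Lgi2 these were Myh6, Srek1 and Erbb4 over the 10 rats of experiment 1 (r of 0.96, 0.94 and 0.92) and Dpp10, Esrrg and Igsf3 over the 12 rats of experiment 2 (r of 0.93, 0.91 and 0.91). For Adam11 they were Ctsb, Tbkbp1 and Sfxn1 in experiment 1 (r of 0.94 to 0.95) and Sart1, Flot1 and Matk in experiment 2 (r of at least 0.99). Lgi1 was most like Dclk3, Tbc1d8 and Slc2a13 in experiment 1 (r of 0.95 each) and Med1, Cul5 and Ptchd1 in experiment 2 (0.98 each). Lgi4 was most like Maged1, Plxna3 and Slc16a11 in the first (0.95 to 0.97) and Aldoc, Rnf10 and Rpl10 in the second (0.98 to 0.99). Lgi3 was closest to Plxnb3, Zfp709 and Ngly1 in experiment 1 (0.95 to 0.97) and to Galnt6, Crcp and Mtus2 in experiment 2 (0.88 to 0.92), and Adam23 to Man2a2, Dync1h1 and Cnot1 (0.93 to 0.97) and to Ctr9, Kif3a and Gtf2a1 (0.75 to 0.78). The rats of experiment 2 fall into the set of 4 libraries and the other 8, and r over the 12 rats includes the difference between these sets.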

How the data were processed

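PolyA+ RNA of the NAc of 22 rats was sequenced as paired reads, from libraries without strand in experiment 1 and with strand in experiment 2. The authors aligned the reads to rn6 with TopHat2 2.0.13 and deposited raw read counts per gene from htseq-count (HTSeq 0.5.3p3 and 0.6.0, per the submitters' processing notes), with no normalization; the strand option and annotation release are not given in the sources used here. Reads aligned to several places (39.4% to 55.6% of all alignments counted per library) and the 5 summary lines were left out of library sizes and tests.

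Each experiment was fitted alone in edgeR 4.0.16 (R 4.3.3) with TMM, estimateDisp, glmQLFit and glmQLFTest at their defaults, over genes with a base mean (count divided by DESeq2 size factor, averaged) above the median of listed genes, 43.6 and 66.4. P-values were adjusted by Benjamini-Hochberg over 8655 genes. Standard errors were derived from each F statistic. Counts brought to the mean effective library size are called normalized counts, and log2 CPM used a prior count of 2. Nothing in the labels says that rats were pooled, and no pair of rats in a group agreed within sampling noise (chi-square per degree of freedom of at least 2.67 over 50 pairs). The members, lists and tests were chosen with earlier results of these data known. Genes were named as all listed members, the lowest and highest fold change of each list, any list gene with an FDR under 0.1, and the 3 genes most like each member; Dlg4 was named as PSD-95, and other marker genes to describe the tissue. Alternatives were DESeq2 1.42.0, its size factors in edgeR, other filters, the other mode of glmQLFit, a replicate block, a covariate for the share of reads outside genes, and leaving out each rat. The fits without, and within, 4 libraries of experiment 2 were chosen after seeing the data. The fits were tested on simulated data. Some marker genes are not reported here.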

Additional observations from a re-analysis of the deposited data

Results flagged for a closer look

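Each gene, and the share of reads outside annotated genes, was examined within each group for a lone rat distant from its group. Of 28 groups, 2 were flagged, where chance flags about 1.4. Both were of Lgi3. In EtOH rats of experiment 1, replicate 3 had the lowest value, 266.8 normalized counts against 382.8 to 429.5 in the other 4, a gap of 0.713 of the range of the group, where 0.71 is the limit. After water gavage in experiment 2, replicate 1 had the highest value, 1384.8 against 871 to 1044.2, a gap of 0.663 of the range with a limit of 0.625. Without these rats the log2 fold change of Lgi3 was 0.08 in experiment 1 and 0 in experiment 2.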

How the results depend on the processing

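Under an FDR of 0.05 the number of genes was 0 with each alternative and without each rat in turn (lowest 0, highest 0) in both experiments. With Lgi2 in experiment 1 set aside, no fold change of the family passed that FDR in any fit. Of 228 recomputed fold changes, 214 kept their direction. Both numbers include those of Lgi2 in experiment 1, which chose the family and are a description only. In experiment 1, Lgi2 stayed between -0.63 and -0.60 under the 7 alternatives and between -0.70 and -0.54 without single rats. Without single rats, Adam11 ranged from -0.09 to 0.11, Adam23 from -0.18 to 0.04 and Lgi3 from -0.08 to 0.08 in experiment 1. Adam23 ranged from -0.04 to 0.10 in experiment 2, so that the directions of these small values rest on single rats. Lgi3 ranged from -0.27 to 0 in experiment 2, the latter without water gavage replicate 1, and leaving out a single rat did not reverse it. In experiment 2, with the share of reads outside genes as a covariate, the log2 fold change was -0.06 for Lgi1, 0.04 for Lgi4 and 0.15 for Adam11, each turned from its direction without the covariate. Lgi3 was 0.06 without the 4 libraries that stood apart, -0.40 within them and -0.20 with the covariate, and Adam23 was 0.12 without them and -0.09 within them. The cause was not tested.

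Rats with the same replicate number share only that number in the labels. The correlation of their deviations averaged 0 in experiment 1 and 0.15 in experiment 2, with pairs from -0.759 to 0.835 in the latter, and 2 of 10 and 1 of 12 rats correlated best with the rat of their own number, so they were not treated as pairs. A replicate block gave 0 genes at an FDR under 0.05 in each experiment, moved the number at an unadjusted p under 0.05 in experiment 2 from 115 to 414, and turned Adam11 in experiment 1 from -0.01 to 0. That number in experiment 2 was also 286 with no filter on low counts and 315 with DESeq2, where more genes were tested. It was 30 to 776 without single rats, 940 without the 4 libraries and 864 within them. In experiment 1, from 483, it was 820 with no filter, where more genes were tested. Without single rats it was 378 to 739 there, the highest without water replicate 5. In experiment 2 the lowest came without water gavage replicate 2 and the highest without water gavage replicate 1. The counts of Lgi2 in experiment 1, 46 to 140 reads per rat, limit its precision.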

Other observations

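Other markers outside the family were also read in both experiments, and 0 of them passed an FDR of 0.05 by edgeR's quasi-likelihood test. The 3 oligodendrocyte precursor markers were higher in EtOH rats of experiment 1, from Cspg4 at a log2 fold change of 0.15 to Pdgfra, the growth factor receptor of these cells, at 0.30, and their summed level was 242.5 to 275.8 CPM in controls and 275.6 to 335.6 CPM in EtOH rats. In experiment 2, Cspg4 at -0.47 and Olig2 at -0.42 were lower after EtOH gavage, and Pdgfra was higher at 0.18. The summed level of these markers was then 199.7 to 252.9 CPM after water gavage and 184.1 to 256.3 CPM after EtOH gavage. Astrocyte markers ranged from Aldh1l1 at -0.07 to Gja1 at 0.05 in experiment 1 and from Gfap at -0.61 to Aqp4 at 0.24 in experiment 2. Microglia markers ranged from Itgam at -0.38 to P2ry12 at 0.14 and from Cx3cr1 at -0.63 to P2ry12 at 0.10. Of the ependyma and choroid plexus markers, Foxj1 alone was tested, in experiment 1, at 0.65 (FDR 0.866).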
